A study of Mus musculus with 2 samples.

Results

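On the Affymetrix arrays that profiled anterior and posterior limb bud tissue of the mouse, 1019 of 23332 probe sets (4.37%) are annotated to more than one gene symbol. They were chosen by that annotation alone, whatever their signal, and each was kept as a row of its own. A probe set here is a transcript cluster, the group of short probes whose signals are summarised to 1 expression value. The tissue came from wild-type CD1 embryos, an outbred stock, at embryonic day 10.5. The limb buds were cut along the midline, and the protocol names 8 litters. The labels do not say whether forelimb buds, hindlimb buds or both were taken. The anterior group is the pooled RNA of the anterior parts on 1 array, and the posterior group is the pooled RNA of the posterior parts on 1 array. Neither group has a replicate, so no value below has an error over samples and no difference has a test. Pooled whole tissue also means that fewer cells of a type and less RNA per cell cannot be told apart.

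A probe measures whatever labelled RNA binds its sequence. Genes that arose by duplication, such as histone, olfactory receptor and major histocompatibility genes, can keep stretches so alike that a short probe binds the transcripts of several. Processed pseudogenes, which are copies of a messenger RNA put back into the genome, do the same for ribosomal protein genes. Other genes share a probe set because they lie next to each other or overlap, or because their transcripts come from the same locus. The signal of such a probe set is not assigned to a gene here, and each is named by its symbols joined by a slash, the first 3 and the number of others where there are more.

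The 1019 probe sets hold 2541 symbol entries and 1971 distinct symbols. Of them, 776 carry 2 symbols, 140 carry 3 and 103 carry 4 or more, up to 13 in the sets of histone H4 genes. In 6 probe sets the annotation writes the same symbol more than once and names no other gene, among them Rwdd3/Rwdd3 and Kif18b/Kif18b. The probe sets are not independent of each other. A symbol links 392 of them to at least 1 other, and the 1019 fall into 790 groups with no symbol in common, the largest with 11 probe sets.

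By their symbols, 520 probe sets name genes with a shared stem, the symbol without its trailing number and letter, as in Saa1 and Saa2. A further 350 name genes with no shared stem, 117 name 1 gene beside predicted or clone symbols, and 15 hold predicted or clone symbols alone. Small RNA genes stand beside another gene in 7, and an antisense or opposite-strand symbol in 4. The stem rule reads letters, not relatedness. It leaves Trp53rka/Trp53rkb and Klk1b5/Klk1 among the genes with no shared stem.

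Gene order in the RefSeq annotation of GRCm38.p6 gave the genomic relation of the symbols. In 612 probe sets all placed genes were neighbours, with at most 5 other genes between one and the next. In 146 they lay on the same chromosome but farther apart, in 201 on different chromosomes, and in 60 fewer than 2 genes could be placed. Neighbouring genes with a shared stem formed the largest of these combinations, with 348 probe sets. Neighbours with no shared stem followed with 212.

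How alike the genes of a probe set are was read from RefSeq start windows, which run from 250 bases before to 50 bases after the annotated start of a gene in GRCm38.p6. The best matching windows of 366 probe sets with a shared stem had a median identity of 82.8%, and 201 of these 366 (54.9%) reached 80%. For 192 probe sets of named genes with no shared stem the median was 54.9%, and 13 reached 80%. These windows describe the genes, since the sequences of the array probes themselves were not used here. The following stretches show what copied starts look like in the probe sets whose values are described further on. All are read 5′ to 3′ on the strand of the gene, and capitals mark bases that differ between the genes of a pair in their alignment.

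Saa1 and Saa2 encode serum amyloid A proteins, acute-phase proteins of the blood. They lie on opposite strands of chromosome 7, and their whole windows were 95.7% identical over 300 aligned positions. The stretches are chr7:46742931-46743030 (minus strand) for Saa1 and chr7:46751783-46751882 (plus strand) for Saa2.
Saa1: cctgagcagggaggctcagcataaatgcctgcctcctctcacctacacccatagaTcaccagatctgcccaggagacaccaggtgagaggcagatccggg
Saa2: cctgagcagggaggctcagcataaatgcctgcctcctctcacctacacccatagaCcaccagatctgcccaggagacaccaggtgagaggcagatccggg

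Zfp959 and Zfp119a are zinc-finger genes on opposite strands of chromosome 17, with windows 94.7% identical over 300 positions. The stretch below is the same in both, at chr17:55892043-55892142 (plus strand) for Zfp959 and chr17:55878904-55879003 (minus strand) for Zfp119a.
Zfp959 and Zfp119a: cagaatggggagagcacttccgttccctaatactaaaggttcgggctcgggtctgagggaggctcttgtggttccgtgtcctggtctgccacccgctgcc

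Tmsb15b1 and Tmsb15b2 encode beta-thymosins, small proteins that bind actin monomers. They lie on the minus strand of the X chromosome at chrX:136976825-136976924 and chrX:136957965-136958064, and 97.0% of 265 aligned positions were identical.
Tmsb15b1: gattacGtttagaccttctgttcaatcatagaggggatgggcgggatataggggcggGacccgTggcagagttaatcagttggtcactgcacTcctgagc
Tmsb15b2: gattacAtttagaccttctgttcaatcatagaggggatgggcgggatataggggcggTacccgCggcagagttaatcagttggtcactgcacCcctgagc

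Trp53rka and Trp53rkb are copies of the gene of a small kinase of the KEOPS complex, which modifies transfer RNA. Both lie on chromosome 2, at chr2:165493299-165493398 (minus strand) and chr2:166793718-166793816 (plus strand). Of 282 aligned positions 85.1% were identical, and differences fall near the left end of the stretch shown.
Trp53rka: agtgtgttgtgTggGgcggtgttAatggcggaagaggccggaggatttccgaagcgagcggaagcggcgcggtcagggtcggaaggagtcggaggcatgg
Trp53rkb: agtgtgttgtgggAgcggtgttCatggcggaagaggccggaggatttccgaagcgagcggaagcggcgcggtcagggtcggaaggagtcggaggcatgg

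The values are log2 expression values made by RMA, a method that corrects background, equalises the arrays and summarises the probes. A difference is the posterior value minus the anterior value on the log2 scale, and 1.3-fold, the threshold the submitters named, is 0.38 on that scale. Other descriptions stand in for an error. The detection floor of 5.06 is the 95th percentile of the values of 853 receptor and defensin genes with a 1-symbol probe set, and a probe set is called detected where its higher value lies above it. Where the lower value of a detected probe set lies under the floor, its fold is given against the floor, as "at least". The local spread is the robust standard deviation of the differences of the 500 1-symbol probe sets nearest in level, which ran from 0.07 to 0.23 and holds true differences as well as noise.

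The labels were set beside genes that have a 1-symbol probe set. These lists were chosen with earlier results of these data known, so this is a description and not an independent check. All 10 limb mesenchyme markers were detected, with a summed level of 11.87 in the anterior and 11.45 in the posterior array. Their differences ran from -1.31 (Lhx9) to 0.375 (Tbx4). The summed level of 5 posterior markers was 8.56 in the anterior and 9.66 in the posterior array, and that of 4 anterior markers was 11.56 and 10.66. The sums were taken on the linear scale and rest most on Ptch1 (7.41 and 8.58) and Asb4 (11.21 and 10.20). By gene, the posterior list differed by 0.97 (Shh), 0.64 (Hand2), 1.37 (Hoxd13), 1.17 (Ptch1) and 0.72 (Gli1). The anterior list differed by -0.64 (Alx4), -0.55 (Gli3), -0.37 (Pax9, under the threshold) and -1.01 (Asb4). Shh in anterior and Pax9 in posterior tissue lay under the floor. Markers of other cells were present as well, with 4 of 4 measured ectoderm, 3 of 3 endothelium, 3 of 3 neural, 2 of 3 muscle progenitor, 2 of 2 measured red blood cell and 1 of 3 macrophage markers detected.

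Of the 1019 multi-symbol probe sets, 440 (43.2%) were detected, against 60.7% of the 14996 probe sets with 1 symbol. Detection differed between the kinds of annotation. It was 25.6% for the 520 with a shared stem and 63.1% for the 350 named genes with no shared stem. By genomic relation it was 67.7% for symbols on different chromosomes, 38.6% for neighbours and 28.1% for genes farther apart on a chromosome. By number of symbols it was 46.8% with 2, 39.3% with 3 and 21.4% with 4 or more. The floor was set on receptor and defensin genes, so these shares depend in part on its construction. Such symbols are held by 145 of the 520 with a shared stem and 11 of the 350 without. With them left out, 123 of 375 and 219 of 339 were detected. For all multi-symbol probe sets it was 428 of 860, beside 9045 of 14142 with 1 symbol.

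By their measured values, 79 of the 1019 reached 1.3-fold toward posterior tissue, where 8.20% of all probe sets were, and 95 in anterior tissue, where 9.92% were. The 174 together are 17.1% of the multi-symbol probe sets. Probe sets with 1 symbol passed in 8.70% and those with no annotation entry in 37.6%, and the share over all probe sets holds both kinds. The median difference was -0.03 for the multi-symbol probe sets and -0.03 for all probe sets. Both values were exactly equal in 32 of the 1019 (3.14%), against 3.31% of the 1-symbol probe sets.

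Among the 440 detected, 13 passed toward posterior tissue, where 5.66% of all detected probe sets did, and 39 toward anterior tissue, where 9.15% did. Correction for the trend of the difference with level left 17 posterior and 30 anterior, and moved the anterior share from 39 of 52 to 63.8%. The median difference of the detected was -0.07, beside -0.06 for all detected probe sets. In 10 of the 13 and in 13 of the 39 the lower value lay under the floor, and in 8 and 9 of these the fold against the floor was under 1.3. At the threshold, Mef2d/AW047730 (5.93 anterior, 6.31 posterior) was just inside on the posterior side and Gm5424/Ass1 (7.49 and 7.83) just outside. On the anterior side the neighbours of the threshold were 4921509C19Rik/Gm14147 (6.01 and 5.63), inside, and Rarb/Rpl23a/Gm8290 with 3 others (7.21 and 6.84), outside.

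**Figure D1:**
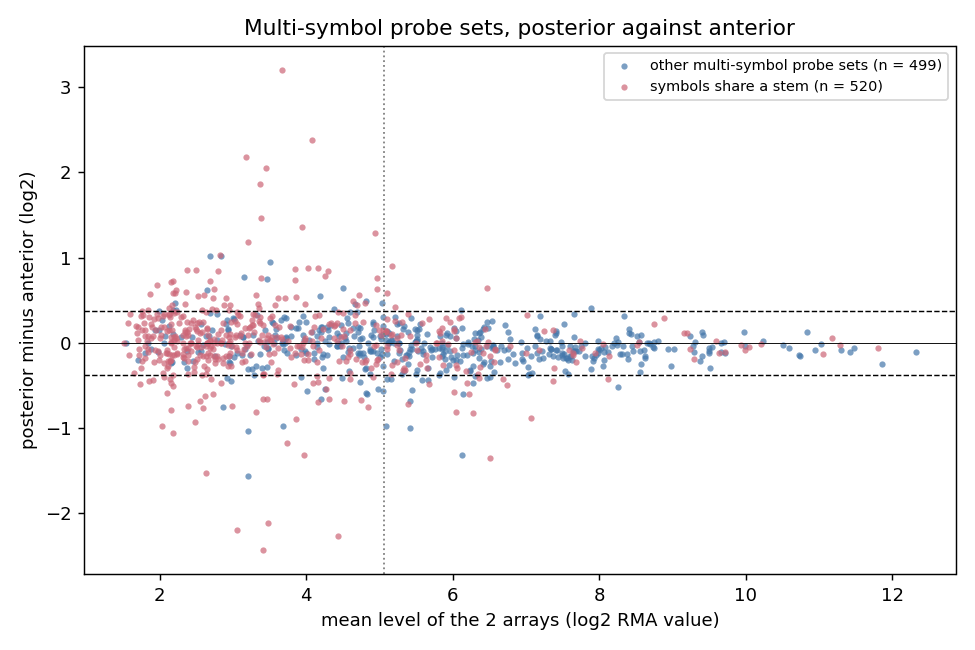
Difference (posterior minus anterior, log2) against the mean level of the 2 arrays (log2 RMA value) for the 1019 multi-symbol probe sets, 1 point each, with the 520 that share a symbol stem in red and the other 499 in blue. Dashed lines mark 1.3-fold and the dotted line the detection floor at 5.06. Points far from 0 lie mostly at low levels, and the highest and lowest, at 3.20 and -2.43, are shared-stem probe sets.

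Of the 520 shared-stem probe sets, 62 passed toward posterior and 61 toward anterior tissue (23.7%), where 18.1% of all probe sets passed in either direction. Among named genes with no shared stem 9 and 23 passed, 9.14% of 350, and among single genes beside predicted or clone symbols 7 and 8 of 117 did. None of the small RNA, antisense or repeated-symbol probe sets passed. Shared-stem probe sets sit lower, with 300 and 88 of the 520 in the lowest 2 of 5 equal classes of level, so the kinds of annotation were set side by side within these classes of mean level. From the lowest level class to the highest, 23.0%, 36.4%, 14.8%, 28.6% and 3.45% of the shared-stem probe sets passed. The shares were 16.4%, 12.3%, 9.30%, 7.35% and 2.63% for named genes with no shared stem, 14.0%, 12.4%, 8.03%, 7.30% and 2.76% for 1-symbol probe sets, and 25.9%, 24.6%, 19.3%, 15.2% and 5.61% for all probe sets, which include those with no annotation entry. The shared-stem share lay above that of all probe sets in classes 2 and 4 and under it in classes 1, 3 and 5. It was higher than that of the 1-symbol probe sets in each class, by little in the top class, where it rests on 29 probe sets. Near-copies share probes, RNA and each other's symbols, so these shares rest on fewer independent genes than their counts.

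**Figure D2:**
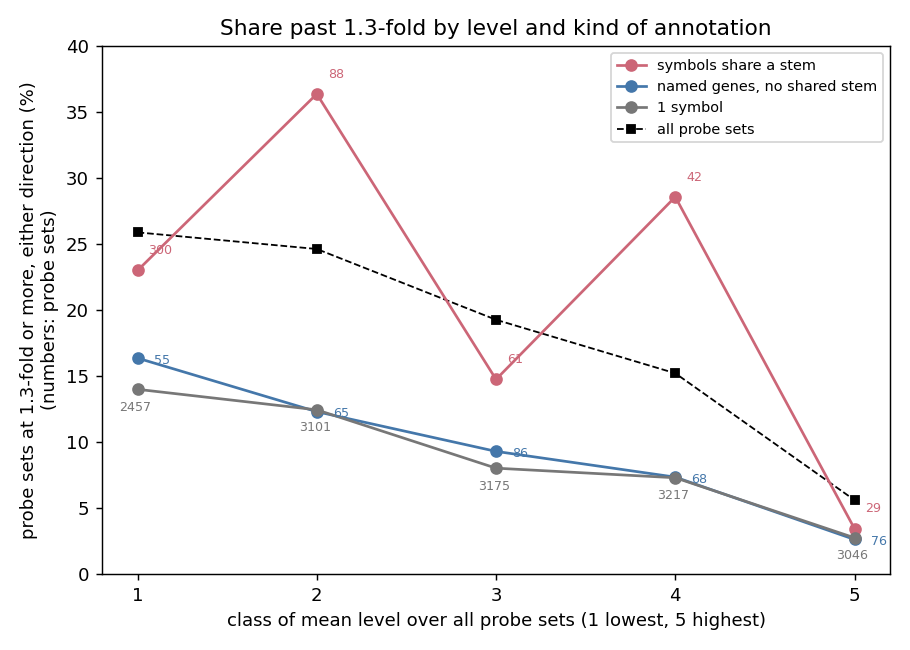
Share of probe sets at 1.3-fold or more in either direction (%, vertical axis) by class of mean level, 1 lowest to 5 highest (horizontal axis), with the number of probe sets beside each point. The red points (shared stem) run from 23.0% to 3.45% with a second high value of 28.6% in class 4, while the blue (no shared stem) and grey (1 symbol) points lie close together. Black squares give all probe sets, from 25.9% to 5.61%, with 4666 or 4667 in each class.

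Olfactory and other chemosensory receptors were a large part of the low shared-stem probe sets. Without any receptor or defensin symbol, 78 of 375 shared-stem probe sets passed (20.8%), and 7.33% of 14142 1-symbol probe sets did. With such a symbol the shares were 31.0% of 145 and 31.3% of 854. In class 4 of mean level 12 of 42 shared-stem probe sets passed, all of them above the floor in both arrays. These were Ncoa4/Ncoa4-ps, Tmsb15l/Tmsb15b2/Tmsb15b1, H2-D1/H2-Q2/H2-K1 with 4 others, Rpl34/Rpl34-ps2, Dync2h1/Impg1/H2-Q6 with 3 others, Hspa1l/Hspa1a, Tuba1a/Tuba1c/Gm5620, a set of 13 H4 genes, Gng5/Gng5-ps, Zfp873/Zfp781 and Zfp53/Zfp51 toward anterior tissue, and Rpl26/Rpl26-ps2 toward posterior tissue. The 2 sets with H2-Q6 share symbols and are not separate genes.

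By their start windows, 228 probe sets hold genes with copied starts, that is, a best match of at least 80%. Of these 39 were detected, and 28 and 30 of the 228 passed toward posterior and anterior tissue (25.4%). Their median level was 2.82, and 25.9% of all probe sets in the lowest class of level passed. With unlike start windows, at a median level of 5.07, 227 of 428 were detected, and 31 and 30 passed (14.3%). The difference in level between these kinds was not removed. In 14 probe sets the genes share an annotated start, and 1 of them passed, Tmsb15l/Tmsb15b2/Tmsb15b1. The rest of the 14 include genes read from a common transcript start such as Snrpn/Snurf, Cers1/Gdf1 (5.46 anterior, 5.35 posterior) and Mrps6/Slc5a3 (7.37 and 7.30). Cers1 encodes a ceramide synthase and Gdf1 a signalling ligand of the TGF-beta family, and they are known to be made from a common messenger RNA.

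Toward anterior tissue, Pisd-ps2/Pisd-ps1/Pisd-ps3, pseudogenes of phosphatidylserine decarboxylase, was at 5.56 in the anterior and 3.30 in the posterior array. The posterior value is under the floor, so the anterior signal exceeded it by at least 1.42-fold. Of the probe sets above the floor in both arrays, Ncoa4/Ncoa4-ps had the largest anterior difference, at 7.18 and 5.83, 2.55-fold, with a local spread of 0.18. Ncoa4 encodes the receptor that delivers ferritin to the lysosome, and Ncoa4-ps is its pseudogene. Rmnd1/Gm5512 followed at 6.79 and 5.47, 2.50-fold higher in anterior tissue. Rmnd1 encodes a protein needed for translation in mitochondria. The last 2 differences lay several local spreads from 0, but they were picked for their size and the local spread comes from 1-symbol probe sets. In class 4 of mean level the robust standard deviation was 0.20 for multi-symbol and 0.16 for 1-symbol probe sets.

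Tmsb15l/Tmsb15b2/Tmsb15b1, the thymosin genes with the near-identical start shown above, was at 7.51 in anterior and 6.63 in posterior tissue, 1.84-fold higher in anterior tissue with a local spread of 0.13. Trp53rka/Trp53rkb was at 8.52 and 8.00, a difference of -0.52 with a local spread of 0.11. Both lie well above the floor, so their folds do not depend on it. Rpl34/Rpl34-ps2 was at 6.44 and 5.63, 1.75-fold higher in anterior tissue. Creg1/Pappa2, which pairs a secreted glycoprotein with a protease of insulin-like growth factor binding proteins, was at 5.76 and 5.08 and 1.60-fold higher.

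Other large anterior differences had a posterior value under the floor. Zbed5/Chchd2, with the gene of a mitochondrial intermembrane protein, was at 5.91 and 4.91, a fold of at least 1.80. Klk1b5/Klk1, tissue kallikrein proteases, was at 5.58 and 4.60, at least 1.44-fold apart. Prkcz/Prkcz2 was at 5.22 and 4.47, which gives a bound of 1.12-fold, under the threshold. Prkcz encodes an atypical protein kinase C of the cell polarity machinery.

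On the posterior side the largest measured differences rest on values near or under the floor. Olfr441/Olfr237/Olfr444, olfactory receptor genes, was at 2.07 in the anterior and 5.27 in the posterior array, so that the fold against the floor is at least 1.16. Saa2/Saa1 was at 2.90 and 5.27, also with a bound of 1.16-fold. Neither bound reaches 1.3-fold, although the values as measured differ by 3.20 and 2.37. A second probe set of Saa1 and Saa2 differed by 2.18 in the same direction. It was under the floor in both arrays, where values have no order. Zfp959/Zfp119a/Zfp119b was at 4.30 and 5.59, at least 1.44-fold higher. Dsg1b/Dsg1a/Dsg1c, the desmoglein 1 genes of epidermal cell junctions, was at 4.72 and 5.62, at least 1.48-fold higher.

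Rpl26/Rpl26-ps2 was the largest posterior difference with both values above the floor, at 6.14 and 6.79 and 1.56-fold higher, with a local spread of 0.18. Rps19/Rps19-ps2 had an anterior value just under the floor, reached 5.42 in posterior tissue and was at least 1.28-fold higher. Krt90/Krt80/Krt83, keratin genes, was at 4.81 and 5.40, at least 1.26-fold higher. Among the ectoderm markers Krt5 was at 6.96 and 7.44, Krt18 at 7.59 and 7.75, Epcam at 7.62 and 7.48 and Fgf8 at 5.62 and 5.50, with a summed level of 9.14 and 9.26; their part in the desmoglein and keratin values was not tested. The bounds of Btg3/Gm7334 (4.80 and 5.27), Olfr1508/Olfr1507 (4.59 and 5.35) and Zic4/B130024G19Rik (4.58 and 5.07) were 1.15-fold and 1.22-fold for the first 2, and the posterior value of the last equals the floor to within 0.01. Zic4 encodes a zinc-finger transcription factor, and its probe set lay at the floor in posterior tissue.

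**Figure D3:**
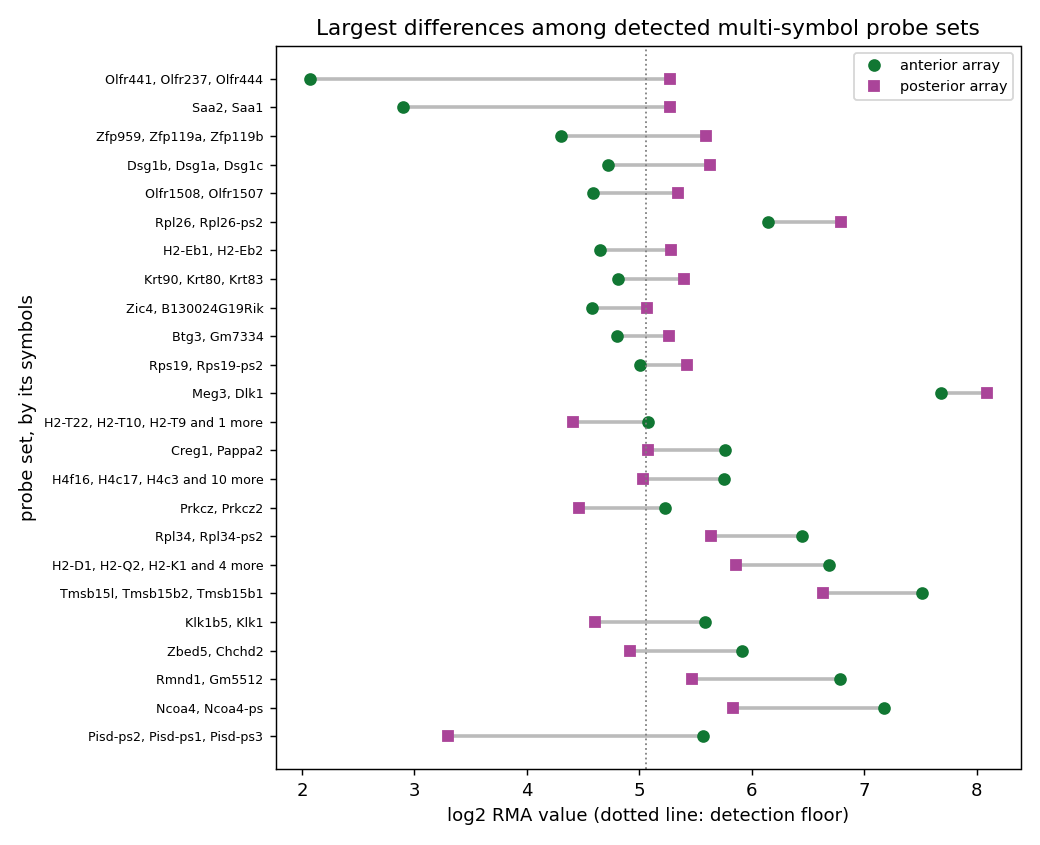
Anterior (green circles) and posterior (purple squares) log2 RMA values of the 12 detected multi-symbol probe sets with the largest difference in each direction, 1 row each, with the detection floor at 5.06 as a dotted line. Most posterior differences cross the floor, while Rpl26/Rpl26-ps2 and Meg3/Dlk1 lie above it in both arrays, as do Ncoa4/Ncoa4-ps, Rmnd1/Gm5512 and Tmsb15l/Tmsb15b2/Tmsb15b1 on the anterior side.

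Imprinted genes, which are expressed from the maternal or the paternal copy alone, are named by 2 probe sets, both well above the floor. Meg3/Dlk1 was at 7.68 in anterior and 8.09 in posterior tissue, 1.33-fold higher in posterior tissue with a local spread of 0.12. With an offset of 32 added on the linear scale its difference was 0.36, under the threshold. Meg3 is a maternally expressed noncoding RNA and Dlk1 a paternally expressed transmembrane protein of the Notch ligand family, and they are neighbours. Snrpn/Snurf, paternally expressed genes that share a transcript, was at 8.19 and 8.50. Its difference of 0.31 was under the threshold, and the trend correction moved it just past, to 0.38. The 1-symbol probe set of Dlk1 was at 6.55 and 6.69, a difference of 0.13.

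The symbol pattern used for limb patterning and Hox genes picked out 4 multi-symbol probe sets, and none of these 4 passed 1.3-fold. The pattern is not a full list of such genes, and the probe sets that name Ihh, Rarb and Zic4 are not among the 4. Of these, Zic4/B130024G19Rik (4.58 and 5.07) passed as measured, with a difference of 0.49. Its anterior value lay under the floor and its posterior value at the floor. Hoxd4/Hoxd3, neighbouring genes of the HoxD cluster, was at 6.51 in anterior and 6.23 in posterior tissue, a difference of -0.28. Hoxa3/Hoxaas3 (4.77 and 4.65), Fgf2/Bbs12 (4.10 and 4.19) and Fgf11/Spem1 (3.43 and 3.65) were not detected. Nrp2/Pard3b was at 7.03 and 7.34 and Ihh/Nhej1 at 5.28 and 5.57; both were chosen after their values were seen. Nrp2 is a receptor for semaphorins and vascular growth factors, and Ihh is a hedgehog ligand of growing cartilage. Their differences, 0.31 and 0.29, were under the threshold.

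Histone genes are named by 20 probe sets, of which 12 were detected. Core histones package DNA, and the replication-dependent ones are made from clustered, near-identical genes in S phase. Of the 20, 2 passed toward posterior and 4 toward anterior tissue (30.0%), beside 18.1% of all probe sets, and the median was -0.07. Of the 12 detected, 0 and 2 passed (16.7%), beside 14.8% of all detected probe sets. The same 13 symbols of H4 genes are carried by 4 probe sets, all detected, and each gives its own value. They were at 5.76 and 5.03, at 6.44 and 5.96, at 5.68 and 5.43, and at 11.14 and 11.20 in anterior and posterior tissue. Their differences were -0.72, -0.47, -0.25 and 0.06, so that the first 2 passed and the last did not differ in the same direction.

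Among other histone sets, 2 probe sets name the same 9 H2A genes and were under the floor in both arrays. One was at 4.62 and 2.19, the other at 3.42 and 4.29, and values under the floor have no order. The H2B sets H2bc4/H2bc11/H2bc12 with 8 others (5.22 and 5.55) and H2bc3/H2bc6/H2bc8 with 3 others (5.97 and 6.27) were detected and under the threshold. H3f3b/H3f3a, genes of the replication-independent variant H3.3, was at 11.83 and 11.77.

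**Figure D4:**
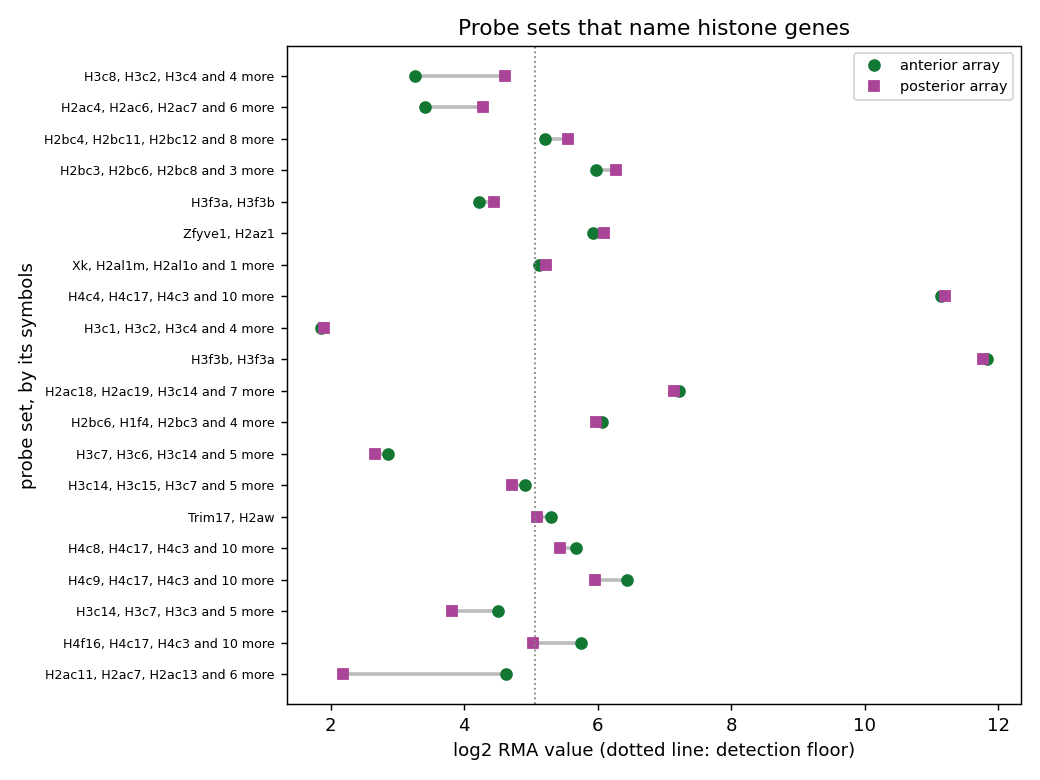
Anterior (green circles) and posterior (purple squares) log2 RMA values of the 20 multi-symbol probe sets that name histone genes, 1 row each, labelled by their first 3 symbols, with the detection floor at 5.06 dotted. The widest lines belong to probe sets under the floor in both arrays, such as the H2A set at 4.62 and 2.19, and the rows whose labels hold H4c17 are the 4 sets of the same H4 genes.

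Ribosomal proteins are named by 36 probe sets, 28 of them detected, many with a pseudogene on another chromosome. Of the 28, 2 passed toward posterior and 3 toward anterior tissue (17.9%), beside 14.8% of all detected probe sets, and their median was -0.06. Rpl34/Rpl34-ps2 and Rpl26/Rpl26-ps2 are given above. Rpl29/Gm8210/Rpl29-ps2 was at 5.91 and 5.43, and Rps13/Rps13-ps1 at 8.33 and 7.91. The same ribosomal symbols in other probe sets gave other values: Pcgf3/Rpl34 was at 8.34 and 8.31, Dhx32/Rps13/Rps13-ps1 at 6.38 and 6.33, and Rps13/Taf1c/Rps13-ps1 at 5.78 in both arrays. Rps14/EG545121 was at 11.98 and 11.73. Translation factors and RNA-binding proteins are named by 20, of which 16 were detected. Of the 16, 2 passed (12.5%), both anterior: Ankhd1/Eif4ebp3/Psma4 (5.72 and 5.17) and Hnrnpul2/Bscl2 (6.22 and 5.82). The latter, at -0.40, fell under the threshold with centred arrays (-0.36), the trend removed (-0.34) or the offset (-0.27), and the former with the offset (-0.32).

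Zinc-finger proteins, many of them tandem copies of KRAB repressor genes, are named by 63 probe sets, of which 39 were detected. Of the 63, 19 had a higher value in posterior and 44 in anterior tissue, beside 9786 and 12975 of all 23332 probe sets. Of the 39, 1 passed toward posterior and 4 toward anterior tissue (12.8%), beside 14.8% of all detected probe sets. Below 0 were 31 of the 39, with a median of -0.14, beside 8658 of 13689 and a median of -0.06 for all detected probe sets. The 4 were Zfp418/Nlrp5 (6.43 and 5.84), Zfp873/Zfp781 (6.90 and 6.48), Zfp53/Zfp51 (6.56 and 6.15) and Zfp286/Wsb2 (6.71 and 6.31). With the trend with level removed, Zfp418/Nlrp5 alone of the 4 stayed past the threshold, at -0.53, while the others came to -0.34, -0.34 and -0.33, and the median of the 63 went from -0.12 to -0.08. The 1-symbol probe set of Zfp51 was at 6.86 and 6.36. Brcc3/Zscan12 was at 9.77 and 9.65.

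Immune receptor and major histocompatibility genes are named by 70 probe sets, 11 of them detected. Of these 11, 1 passed toward posterior and 3 toward anterior tissue (36.4%), beside 14.8% of all detected probe sets. Of the 70, 4 and 8 passed (17.1%), beside 18.1% of all probe sets. H2-D1/H2-Q2/H2-K1 with 4 others, class I genes that present peptides on most cells, was at 6.68 in anterior and 5.86 in posterior tissue, 1.77-fold higher in anterior tissue. H2-K1/H2-K2/H2-D1, which shares 2 of its symbols, was at 5.84 and 5.86. H2-T22/H2-T10/H2-T9 with 1 other was at 5.08 and 4.41, with a bound of 1.01-fold. H2-Eb1/H2-Eb2, class II genes of antigen-presenting cells, was at 4.65 and 5.28, with a bound of 1.16-fold toward posterior tissue. Of the macrophage markers Tyrobp was at 6.40 and 5.54, and Csf1r (4.60 and 4.50) and C1qa (3.95 and 3.24) were under the floor, with a summed level of 6.95 and 6.30; the part of such cells in these differences was not tested.

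Receptors of smell, taste and pheromones and defensins are named by 160 probe sets, of which 12 were detected. The floor was set on 1-symbol genes of the same families, so that few detections follow from its construction. Of the 160, 34 passed toward posterior and 15 toward anterior tissue, beside 8.20% and 9.92% of all probe sets, and the median was 0.09. All but 2 of these 49, both posterior, were not detected, and the median of the 12 detected was -0.01. The 160 had a median level of 2.64. Of 854 1-symbol probe sets with receptor or defensin symbols, 159 passed toward posterior and 108 toward anterior tissue, so more posterior values are not particular to the multi-symbol probe sets. Olfr1505/Olfr1502, above the floor in both arrays, was at 6.86 and 7.18, under the threshold, and past it at 0.40 with the trend removed. Ndufa10/Olfr1415/Olfr1416, which pairs a subunit of respiratory complex I with receptor genes, was at 10.03 and 9.94.

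The remaining families were mostly under the floor or alike in both arrays. Their shares past the threshold stand beside 18.1% of all probe sets and 25.9% of those in the lowest class of level. Proteases and inhibitors, at a median level of 3.27, had 5 of 29 detected. Of the 29, 3 passed toward posterior and 9 toward anterior tissue (41.4%), of which Klk1b5/Klk1 alone was detected. Cytochrome P450, glutathione transferase and other detoxification genes had 5 of 38 detected. Of the 38, 3 and 3 were past the threshold (15.8%), 1 of them detected, Pomt2/Gstz1 (6.67 and 6.26). Its difference of -0.41 fell under the threshold with arrays centred on their medians (-0.37), the trend removed (-0.33) or the offset of 32 (-0.30). Gstp2/Gstp1 was at 11.29 and 11.27 in one probe set and at 4.07 and 3.59 in another. Germ line and X-linked multicopy genes had 1 of 22 detected, Usp17ld/Usp17lc, with a bound of 1.20-fold toward anterior tissue. Of the 22, 1 and 3 were past the threshold (18.2%). The 1 probe set of the Ugt1a locus was not detected.

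Next come genes that most cells use. Past the threshold in either direction were 18.1% of all probe sets and 14.8% of all detected probe sets. None of the 10 probe sets with mitochondrial or glycolytic enzymes passed, 9 were detected, and the differences ran from -0.14 to 0.22. Tubulins and actins had 4 of 8 detected and 1 past the threshold, Tuba1a/Tuba1c/Gm5620, alpha-tubulin genes, at 6.99 and 6.49. Lrrc58/Actb was at 7.56 and 7.43, and Rasl2-9/Actg1 was under the floor in both arrays, at 2.58 and 2.47. Ubiquitin and proteasome genes had 5 of 9 detected, none of them past the threshold, and 1 past it that was not detected. Heat shock proteins and chaperones had 4 of 5 detected, and of the 5, 1 passed toward posterior and 1 toward anterior tissue. The anterior one was Hspa1l/Hspa1a, neighbouring Hsp70 chaperone genes, at 6.31 and 5.74. The posterior one, Qrfprl/Dnajc2 (4.18 and 4.57), was not detected.

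Globin genes are named by 2 probe sets with high values. Hbb-bh1/Hbb-bh2, embryonic beta-like globins, was at 11.12 and 10.98, and Hbb-b1/Hbb-b2, adult beta globins, at 9.11 and 9.22. Neither passed 1.3-fold. The red blood cell markers with a 1-symbol probe set were alike in both arrays, with Hbb-y at 12.28 and 12.29 and Hba-x at 10.54 in each. Other probe sets with high values in both arrays were Cks1b/Cks1brt, cell cycle kinase subunits, at 12.37 and 12.27, Wdr76/Serf2/Hypk at 11.48 and 11.37, and Cox6c/EG621837 at 11.50 and 11.44.

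Small RNA symbols stood beside that of another gene in 7 probe sets, 6 with neighbouring genes and 1 with genes on different chromosomes. Eif4a2/Snora81, a translation initiation factor gene whose intron holds a small nucleolar RNA, was at 8.72 and 8.54, Atn1/Rnu7 at 6.44 and 6.27, and Atg16l1/Scarna6 at 6.34 and 6.52. Of the probe sets with an antisense or opposite-strand symbol, Thtpa/Zfhx2os was at 5.40 and 5.21 and Sub1/Crxos at 8.53 and 8.54.

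How far probe sets with the same symbols differ is a measure the annotation itself offers. In 80 groups the same set of symbols is carried by more than 1 probe set, 168 in all. The gap between the highest and lowest difference in a group had a median of 0.33, was past 1.3-fold in 33 groups (41.3%), and 36 groups held differences of opposite sign. For 135 genes with more than 1 1-symbol probe set the median gap was 0.20, and 29.6% were past 1.3-fold. Where every probe set was detected, the median gap was 0.16 over 14 multi-symbol groups, 2 of them past 1.3-fold, and 0.14 over 65 genes with 1 symbol, 9 of them past it. Most of these groups hold values under the floor, where a gap has no order, and the gap of 3.30 between the H2A sets comes from such values alone. Psme2/Psme2b, genes of a proteasome activator, gave 5.51 and 5.19 in one probe set and 2.61 and 3.80, under the floor, in another. The second probe set of Zfp959/Zfp119a/Zfp119b was under the floor in both arrays, at 2.93 and 2.30, so its difference cannot be set against that of the first.

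A multi-symbol probe set can also be set beside the 1-symbol probe set of one of its genes. Such a pair exists 266 times, for 255 of the 1019. Where a gene has more than 1 such probe set their mean was used, and a repeated symbol counts each time it is written. Both differences had the same sign in 138 pairs (51.9%). Pearson's r over the 266 pairs was -0.08, a description of probe sets that share arrays and partly genes. With both probe sets detected, 45 of 80 pairs had the same sign (56.3%) and r was 0.10. Both differences passed 1.3-fold in 4 of these 80, in the same direction in 3, while the multi-symbol probe set passed alone in 8 and the 1-symbol probe set alone in 9. Detected probe sets leaned to anterior tissue, with 8658 of 13689 below 0. With the trend with level removed, 40 of the 80 pairs had the same sign (50%).

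Single pairs show both outcomes. The 1-symbol probe set of H4c14 was at 6.34 and 5.86, a difference of -0.48, beside -0.72, -0.47, -0.25 and 0.06 for the H4 sets that name it. Hspa1l/Hspa1a differed by -0.57, while the 1-symbol probe set of Hspa1a was at 4.66, under the floor, in anterior and at 5.37 in posterior tissue, so that it was higher on the other side by an amount the floor leaves uncertain. The 1-symbol probe set of Trp53rkb was at 5.92 and 5.80, a difference of -0.12 beside -0.52 for Trp53rka/Trp53rkb. Zbed5 by itself was at 6.22 and 5.90, in the direction of Zbed5/Chchd2 and under the threshold.

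**Figure D5:**
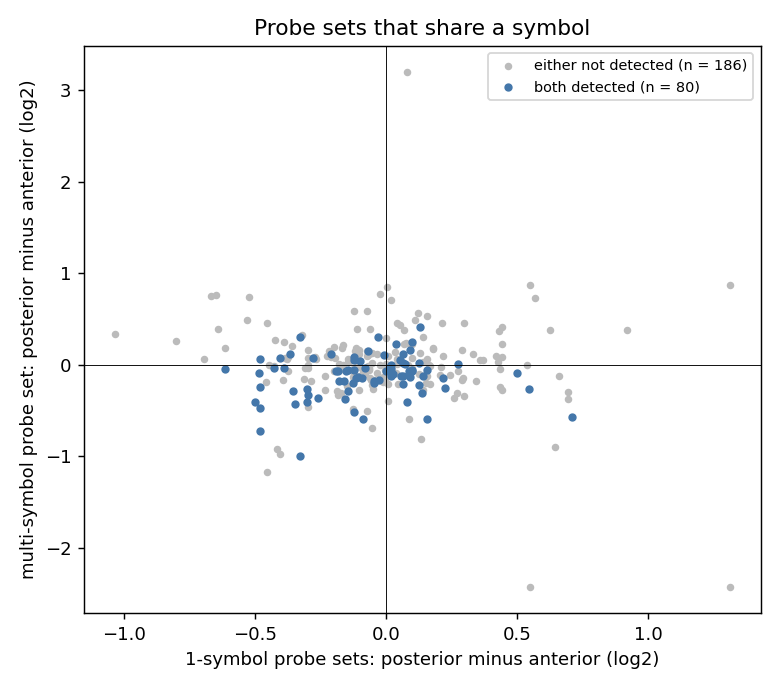
Difference (posterior minus anterior, log2) of a multi-symbol probe set (vertical axis) against that of the 1-symbol probe set of one of its genes (horizontal axis), with the 80 pairs in which both were detected in blue and the other 186 in grey. The points form a cloud around 0 with no line through it, and r is 0.10 for the blue points.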

How the data were processed

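The deposited log2 values, 1 per probe set, were made by RMA in Affymetrix Expression Console at the core gene level, as the labels say. Build mm9 is named in the processing notes of the submitters. Software versions are not given in the sources used here. As usually run, RMA makes array distributions equal, so an overall difference in brightness is removed, and small ratios at low levels can be compressed. Both value columns matched a sample by name, and 0 others were present. The medians over all probe sets were 5.45 (anterior) and 5.41 (posterior).

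Symbols came from the platform annotation. Gene order, strands and start windows came from RefSeq (GRCm38.p6) and were matched by gene ID, which found 2447 of 2541 entries; no position of the arrays' build is given. Up to 6 genes of a probe set and 4 starts of a gene were aligned (Biopython 1.88, free end gaps, at least 100 aligned positions). Protein identity, planned at first, was replaced by these windows, since no protein table was used here.

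Counts, medians and values were computed with Python 3.11.15, pandas 2.3.3 and numpy 2.4.6. The trend with level (lowess, fraction 0.3) was computed with statsmodels 0.14.6. Trend removal and the local spread were tested on simulated data. The differences put in were large and at high levels only, and the counts themselves were not tested. With 1 array a group there is no test, and precision is limited by the number of arrays. The probe sets named are the 12 detected with the largest difference each way, up to 3 detected per family or class with the largest difference and the one with the highest value, the 5 with the highest values, and those with limb patterning, Hox, imprinted or housekeeping symbols; others illustrate a count and were picked with their values in view. Members, lists and alternatives were chosen with earlier results of these data known. Family patterns, the antisense pattern, the repeated-symbol class, the start-window classes, the free end gaps and the sequences shown were set or corrected after the values were seen. Alternatives were detected probe sets alone, median-centred arrays, the trend removed, an offset of 32, symbol-sharing probe sets averaged, predicted symbols left out, a floor at the 99th percentile (6.01), windows aligned end to end, and receptors left out.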

Additional observations from a re-analysis of the deposited data

How the results depend on the processing

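With detected probe sets alone, 13 of 79 posterior and 39 of 95 anterior multi-symbol probe sets past 1.3-fold were left. An offset of 32 on the linear scale, which shrinks differences at low levels by construction, left 9 posterior and 20 anterior of all, and 5 and 16 of the detected. Averaging probe sets that share a symbol, which leaves fewer rows, gave 59 anterior of all and 8 posterior of the detected. A floor at the 99th percentile left 3 posterior and 21 anterior. Pairs with the same sign fell from 138 to 45 when both had to be detected, 51.9% and 56.3% of their pairs. The other alternatives for these counts stayed within 1.5 times, and no named difference past the threshold changed sign. Of 104 named differences and class or family medians, 18 lost the threshold under the offset, 2 under median centring and 3 under trend removal. Trend removal brought 2 named differences past it. The median of the 2 imprinted probe sets, not in these counts, also came past it. It went from 0.36 to 0.43 with the trend removed and to 0.40 with centring. Windows aligned end to end, an alternative chosen after seeing the data, gave median identities of 71.8% (159 at 80% or more) with a shared stem and 50.4% (8) without. Leaving out receptor and defensin symbols, also chosen afterwards, left 126 of 174 probe sets past 1.3-fold; this set of 159 is defined as the floor is and omits Defa21/Defa22, which the family of 160 holds. No paired analysis was possible because each group has 1 array. The lack of replicates limits every value, and values under the floor have no order.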
